A study of Mus musculus with 6 samples.

Results

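Respiratory complex I, the mitochondrial NADH:ubiquinone oxidoreductase, was followed subunit by subunit in AtT-20 cells. Its genes were taken by name: every probe whose symbol begins with Ndufa, Ndufb, Ndufc, Ndufs or Ndufv, with the assembly factors named Ndufaf left aside. This gave 55 probes of 36 genes, and 50 probes of 35 genes were measured, out of 9196 measured genes in all. AtT-20 is a mouse corticotrope tumour line, here stably carrying rat PAM-1, an amidating enzyme of secretory granules, behind a doxycycline-inducible promoter. Clones 14, 6_1 and 6_2 each gave 1 array from doxycycline medium and 1 from control medium after 48 h in serum free of tetracycline, so each medium had 3 arrays and each clone 1 culture per medium. The doxycycline dose is 4 µg/ml in the treatment protocol and 4 mg/ml in the sample descriptions. Every culture carried the transgene, and the labels do not say whether 6_1 and 6_2 are independent lines. An action of the drug and an action of induced PAM-1 cannot be told apart, and p-values measure only the spread between these cultures. Each array reads the RNA of a whole culture, so more transcript per cell and a changed mix of cells cannot be told apart either.

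Complex I takes electrons from NADH and passes them through a chain of iron-sulphur clusters to ubiquinone, and uses the energy to pump protons across the inner mitochondrial membrane. The enzyme is built from modules. The N module oxidises NADH, the Q module reduces ubiquinone, and the proximal and distal pump modules form the membrane arm. The core subunits carry the catalysis and are shared with bacteria, while the supernumerary subunits surround them and are needed for assembly and stability. Some core subunits are encoded by mitochondrial DNA and were not analysed here.

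Values are log2 normalised intensities of a gene's brightest probe, and a change is the doxycycline value minus the control value of the same clone. A probe counted as above background at a detection p under 0.01, and was measured when it was so on at least 3 of the 6 arrays. Per array 16196 to 17149 of 45281 probes were above background, and the number of arrays limits the precision. Corticotrope markers fitted the label, with 6 of 7 above background on all 6 arrays, among them Pomc and Tbx19. All 7 markers of other anterior pituitary cells, all 4 of fibroblasts and both of leukocytes were above background on 0 arrays. Clone 6_1 had a control array unlike the rest, at 56.5 on the first principal component against -33.7 to 18.7 for the other arrays, so results are given per clone.

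Complex I transcripts read higher in doxycycline medium almost throughout, while 0 of the 50 probes passed the test over the whole array at an adjusted p under 0.05. All 35 genes had a mean change above 0, from 0.03 for Ndufv1 to 1.00 for Ndufb7, with a median of 0.60. The median over all measured genes was -0.00. Per clone the complex I median was 0.30, 1.00 and 0.54 in clones 14, 6_1 and 6_2. In 31 genes the value was higher in each of the 3 clones, which was the case for 24.9% of all measured genes, and 0 genes were lower in each clone. Every doxycycline array lay above every control array for 20 genes, or 57.1%, against 12.4% of all measured genes. For the complex I probes the p adjusted over all probes ran from 0.0622 to 0.959 (limma, clone as a block, Benjamini-Hochberg). Of all probes 0.189% passed as higher. At an unadjusted p under 0.05, 39 of the 50 probes were higher and 0 lower, against 11.6% of all probes that were higher. Without clone 6_1 the complex I median was 0.42, and 2 means lay below 0, Ndufv1 at -0.10 and Ndufa9 at -0.01. In that fit 0 complex I probes passed, and 78 of all 16902 probes did in either direction. With clone 14 left out 11 complex I probes passed and with clone 6_2 left out 5. In those fits limma estimated an infinite prior for the spread, and 2.83% and 1.38% of all probes passed as higher. Under median scaling or with the authors' processed values 1 passed, a probe of Ndufa3, while 165 and 40 of all 16902 probes passed in either direction.

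**Figure D1:**
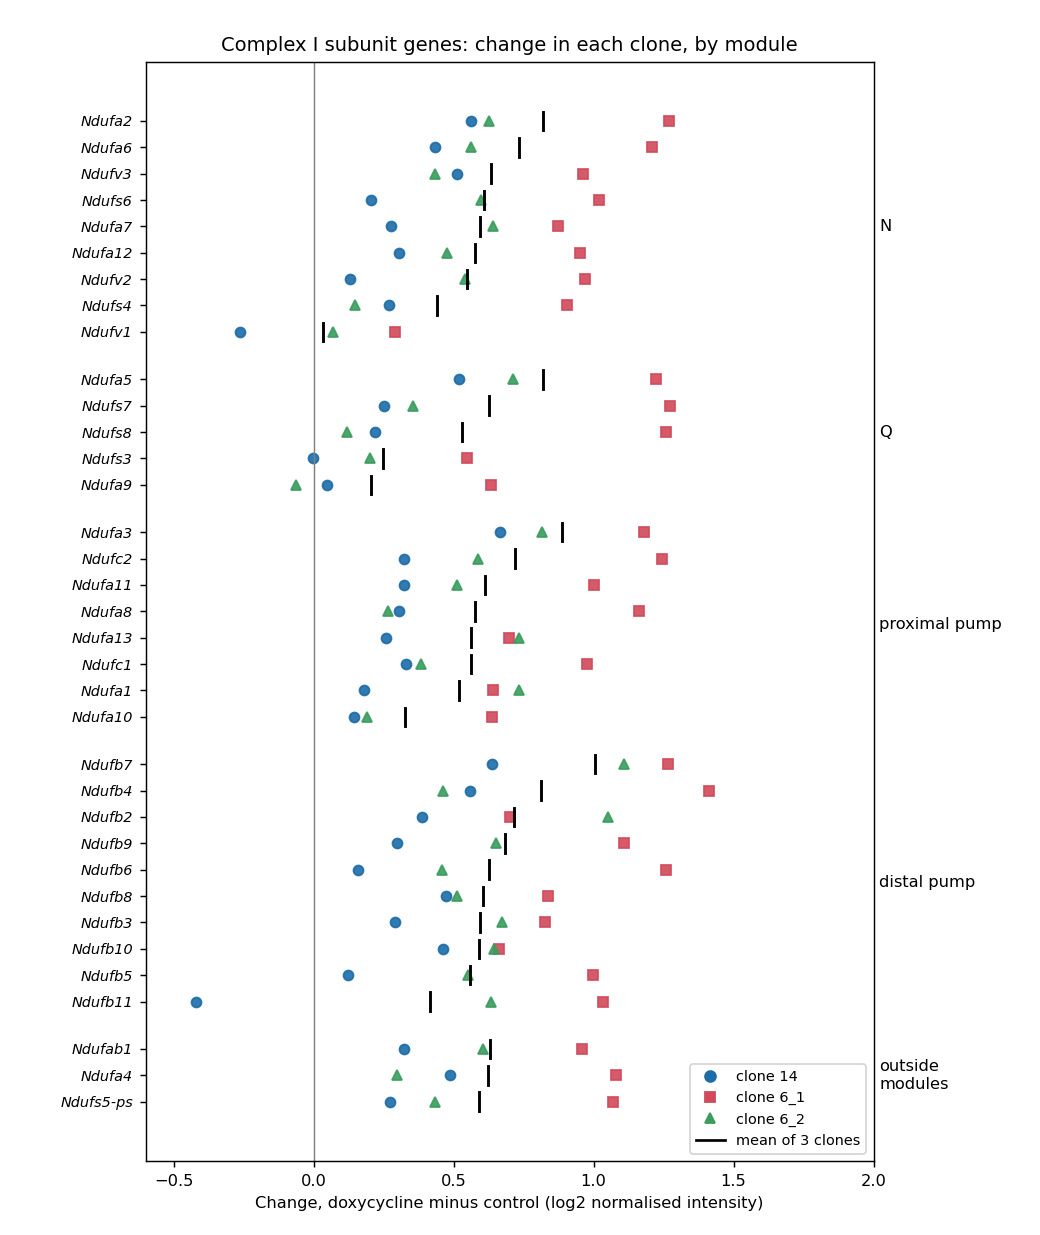
Change of each of the 35 complex I genes (doxycycline minus control, log2 normalised intensity) in clones 14 (circles), 6_1 (squares) and 6_2 (triangles), grouped by module, with the mean of the 3 clones as a black bar. Clone 6_1 has the largest change in most genes, all means lie above 0, and Ndufv1 and Ndufb11 are below 0 in clone 14. The doxycycline value of Ndufb11 in clone 14 is not above background, so its sign there is not a measured one.

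Promoter stretches of 3 genes are shown because these genes lie at the ends and near the middle of the range of changes. Ndufb7 had the largest mean change, at 1.00, Ndufa11 ranked 15th at 0.61, near the family's median, and Ndufv1 changed least, at 0.03. Each stretch runs from 150 bases before to 30 bases after the annotated start (RefSeq, GRCm38.p6), with Ndufb7 at chr8:83566608-83566787 on the plus strand, Ndufa11 at chr17:56717612-56717791 on the plus strand and Ndufv1 at chr19:4012726-4012905 on the minus strand. Capitals mark matches to short cores of motifs known from promoters of respiratory genes, GCATGCGC for NRF1, CCGGAAG for ETS factors and AAGATGGCG for YY1, searched on both strands.
Ndufb7: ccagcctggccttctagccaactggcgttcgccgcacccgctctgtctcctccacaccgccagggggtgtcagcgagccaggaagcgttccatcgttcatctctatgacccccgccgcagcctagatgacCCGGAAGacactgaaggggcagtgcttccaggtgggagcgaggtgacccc
Ndufa11: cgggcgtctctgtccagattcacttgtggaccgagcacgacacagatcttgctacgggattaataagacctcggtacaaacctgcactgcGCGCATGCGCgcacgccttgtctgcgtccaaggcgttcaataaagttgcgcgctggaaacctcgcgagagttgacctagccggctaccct
Ndufv1: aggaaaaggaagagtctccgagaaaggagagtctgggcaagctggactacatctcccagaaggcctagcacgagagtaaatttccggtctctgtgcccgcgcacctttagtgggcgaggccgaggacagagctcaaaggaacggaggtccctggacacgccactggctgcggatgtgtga

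The stretch of Ndufb7 held an ETS core, that of Ndufa11 an NRF1 core that overlaps itself on the opposite strand, and that of Ndufv1 none of these letters. Over windows of up to 300 bases, 34 windows of 32 complex I genes could be read. The NRF1 core stood in 3 of the 34, or 8.82%, the ETS core in 4, or 11.8%, and the YY1 core in 5, or 14.7%. In the 9668 windows of all measured genes the shares were 5.66%, 18.5% and 3.15%, and over all 32851 windows 2.71%, 8.86% and 1.4%. Any of the 3 cores stood in 12 of the 34 windows, or 35.3%, against 25.2% of the windows of measured genes. Ndufs3 and Ndufa9, with mean changes of 0.25 and 0.21, held an ETS and a YY1 core. Ndufa7, which had the family's median change, and Ndufa3, at 0.89, held none of the cores. Whether a core goes with the size of the change was not tested. A match is a description of the letters and not of a bound site.

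The nuclear core subunits changed unequally. Ndufs7, which holds the last iron-sulphur cluster before ubiquinone, read 12.22, 12.32 and 11.89 on the doxycycline arrays, against 11.96, 11.05 and 11.54 on the control arrays (clones 14, 6_1 and 6_2 in this order). The control array of clone 6_1 was the lowest, and the groups overlapped because control clone 14 lay above doxycycline clone 6_2. The mean change was 0.63 (SE 0.22, adjusted p = 0.164). Ndufs8, which carries further clusters of the Q module, read 12.06, 12.27 and 11.73 on the doxycycline arrays, against 11.84, 11.01 and 11.61 on the control arrays in the same clone order. Its change of 0.53 (SE 0.24, adjusted p = 0.228) was made mostly by clone 6_1, at 1.26, and the groups overlapped.

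Ndufv2, an iron-sulphur protein of the N module, read 12.83, 12.76 and 12.60 on the doxycycline arrays, against 12.70, 11.79 and 12.06 on the control arrays, in the order of clones 14, 6_1 and 6_2 that all such values follow. Its control value in clone 14 lay within the doxycycline arrays, and the mean change was 0.55 (SE 0.20, adjusted p = 0.168). Ndufs3, a Q module core subunit, read 11.85, 11.95 and 11.97 on the doxycycline arrays, against 11.85, 11.41 and 11.76 on the control arrays. All of its arrays but the control of clone 6_1 lay close together, and the mean change was 0.25 (SE 0.18, adjusted p = 0.423). Ndufv1, the subunit that binds NADH and the flavin (GRCm38.p6 chr19:4007499-4012755), read 13.19, 13.22 and 13.31 on the doxycycline arrays, against 13.45, 12.93 and 13.24 on the control arrays. The highest and the lowest value were both on control arrays, so that the doxycycline arrays lay inside the control range, and the mean change was 0.03 (SE 0.18, adjusted p = 0.927). Ndufs1, the largest iron-sulphur subunit, had 1 probe, above background on 0 arrays, so its level was not measured. Of the 5 measured core genes, 3 were higher in each clone and 0 had every doxycycline array above every control array. Of the 27 supernumerary genes placed in a module, 25 were higher in each clone and 19 had every doxycycline array above every control array. Over all measured genes the shares were 24.9% and 12.4%, so 0 of 5 core genes without overlap is near the share over all genes. The core median was 0.53 and the supernumerary median 0.61, and this difference was not tested.

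**Figure D2:**
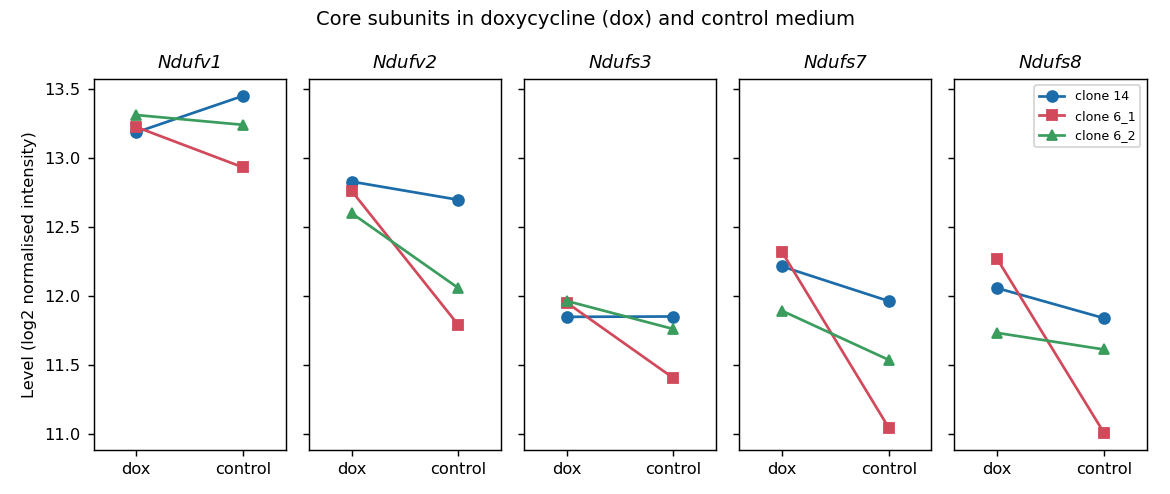
Level of the 5 measured core subunits (log2 normalised intensity) with doxycycline and in control medium, 1 line per clone. All 5 have their lowest value on the control array of clone 6_1, and for Ndufv1 the line of clone 14 is higher in control medium.

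Among the supernumerary subunits of the N module, Ndufa2 and Ndufa6 had the largest changes. Ndufa2, a small protein with a thioredoxin-like fold, read 12.66, 13.03 and 12.44 on the doxycycline arrays, against 12.10, 11.76 and 11.81 on the control arrays. All doxycycline arrays were above all control arrays, and the mean change was 0.82 (SE 0.19, adjusted p = 0.0961). Ndufa6, which anchors the acyl carrier protein at the base of the module, read 12.10, 12.28 and 11.79 on the doxycycline arrays, against 11.67, 11.08 and 11.23 on the control arrays, again without overlap, and changed by 0.73 (SE 0.20, adjusted p = 0.111). The other 5 measured members, Ndufv3, Ndufs4, Ndufs6, Ndufa7 and Ndufa12, had mean changes of 0.44 to 0.64, each higher in all 3 clones. Ndufs4, whose loss gives a Leigh-like disease in mice, had the smallest of these. Over its 9 measured genes the N module had a median of 0.60, with 0.27, 0.96 and 0.54 in clones 14, 6_1 and 6_2.

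In the Q module the supernumerary subunits went apart. Ndufa5, which sits on the side of the module, read 12.85, 12.62 and 12.42 on the doxycycline arrays, against 12.33, 11.40 and 11.71 on the control arrays. Every doxycycline array was above every control array, and the mean change was 0.82 (SE 0.19, adjusted p = 0.0955). Ndufa9, at the joint of the matrix and membrane arms, read 12.69, 12.68 and 12.62 on the doxycycline arrays, against 12.64, 12.05 and 12.69 on the control arrays. Only the control array of clone 6_1 was clearly apart from the other 5, and the mean change was 0.21 (SE 0.19, adjusted p = 0.539), with 0.05, 0.63 and -0.06 per clone. The module's median over 5 genes was 0.53, with 0.22, 1.22 and 0.20 per clone. With clone 6_1 left out it was 0.17, so the Q module value rests largely on that clone.

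The proximal pump module was higher in each clone for all 8 of its measured genes. Ndufa3, a small membrane subunit (GRCm38.p6 chr7:3617347-3620165), read 12.74, 12.89 and 12.25 on the doxycycline arrays, against 12.07, 11.71 and 11.44 on the control arrays. The groups did not overlap, the mean change was 0.89 (SE 0.18, adjusted p = 0.0828), and it was the largest change in clone 14, at 0.67. Another probe of this gene (ILMN_2772241) changed by 1.05 (SE 0.19, adjusted p = 0.0622), the lowest adjusted p among the complex I probes. Ndufc2, another membrane arm subunit, read 12.68, 12.72 and 12.42 on the doxycycline arrays, against 12.36, 11.47 and 11.83 on the control arrays, without overlap, and changed by 0.72 (SE 0.21, adjusted p = 0.121). The remaining 6 genes had mean changes of 0.32 to 0.61. Among them are Ndufa13, also known as the cell death regulator GRIM-19, at 0.56 and Ndufa10, a subunit with a nucleoside kinase fold, at 0.32. The module's median was 0.57, with 0.31, 0.99 and 0.55 per clone.

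In the distal pump module, Ndufb7, a disulphide-bonded subunit on the intermembrane face (GRCm38.p6 chr8:83566758-83571623), read 9.75, 9.37 and 9.08 on the doxycycline arrays, against 9.11, 8.10 and 7.97 on the control arrays. The control arrays of clones 6_1 and 6_2 were lowest and the control of clone 14 lay just above the doxycycline array of clone 6_2. The mean change was 1.00 (SE 0.19, adjusted p = 0.0693), or 2.01-fold. Ndufb4 read 8.70, 8.83 and 8.68 on the doxycycline arrays, against 8.14, 7.42 and 8.21 on the control arrays, without overlap, and changed by 0.81 (SE 0.22, adjusted p = 0.11). Its change in clone 6_1, 1.41, was the largest of any brightest probe. Ndufb2 read 9.88, 9.67 and 9.78 on the doxycycline arrays, against 9.49, 8.96 and 8.72 on the control arrays, also without overlap, and its change of 0.71 (SE 0.19, adjusted p = 0.106) was largest in clone 6_2, at 1.05. Ndufb2 and Ndufb4 are both small membrane-arm proteins. Ndufb3, a further one, read 12.13, 12.17 and 11.78 on the doxycycline arrays, against 11.84, 11.34 and 11.11 on the control arrays, with a mean change of 0.60 (SE 0.18, adjusted p = 0.128). Its control array of clone 14 lay above the doxycycline array of clone 6_2.

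Ndufb11, an X-linked distal subunit, had a computed change below 0 in clone 14, which rests on a doxycycline value not above background. It read 5.95, 7.08 and 6.64 on the doxycycline arrays, against 6.36, 6.05 and 6.00 on the control arrays. The doxycycline array of clone 14 was the lowest of all 6 and the only array not above background. The changes, the first of them against a value not above background, were -0.42, 1.03 and 0.63 in clones 14, 6_1 and 6_2, on a probe close to the lowest values above background, 5.97 to 6.22 per array. The mean of 0.42 (SE 0.26, adjusted p = 0.362) thus includes 1 array at background. The other 5 distal genes, Ndufb5, Ndufb6, Ndufb8, Ndufb9 and Ndufb10, had mean changes of 0.56 to 0.68. Over 10 genes the module's median was 0.62, with 0.34, 1.02 and 0.64 per clone. The 4 module medians thus were 0.53, 0.57, 0.60 and 0.62 for Q, proximal pump, N and distal pump. The distal median lay above those of N and proximal pump in each clone, the Q median was the highest in clone 6_1, and the differences between modules were not tested. With Ndufa6, Ndufa7, Ndufa9 and Ndufa12, which lie at the border of N and Q, moved to the other module, N had 0.55 and Q 0.60, which turns their order round.

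The 3 remaining genes are not, or not only, complex I subunits. Ndufab1, the mitochondrial acyl carrier protein that also serves fatty acid synthesis, read 13.99, 13.70 and 13.74 on the doxycycline arrays, against 13.66, 12.74 and 13.13 on the control arrays, without overlap, and changed by 0.63 (SE 0.18, adjusted p = 0.123). Ndufa4, now placed with cytochrome c oxidase, changed by 0.62 (SE 0.20, adjusted p = 0.137). Ndufs5-ps is listed as a pseudogene, and its probe may also read the near-identical Ndufs5, so its change of 0.59 (SE 0.20) is uncertain as to the copy.

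In 11 genes more than 1 probe was measured, and in 7 of them the probes' mean changes lay within 0.2 of each other. Ndufv3, an N module subunit known in a long and a short isoform, had probes of opposite sign. Its brightest probe, ILMN_2668977, read 13.73, 13.77 and 13.44 on the doxycycline arrays, against 13.22, 12.80 and 13.01 on the control arrays, without overlap, and changed by 0.64 (SE 0.18, adjusted p = 0.119). Probe ILMN_3008277 changed by 0.57 (SE 0.17). The platform annotation assigns it to the same transcript record as ILMN_2688822, and the brightest probe to another record. Probe ILMN_2688822 read 6.79, 6.68 and 6.61 on the doxycycline arrays, against 6.62, 6.997 and 6.76 on the control arrays, lower with doxycycline in clones 6_1 and 6_2, and changed by -0.10 (SE 0.18, adjusted p = 0.757). Ndufb8 changed by 0.61 (SE 0.17) on probe ILMN_2621966 and by 0.02 (SE 0.19) on ILMN_2501071. The Ndufv3 and Ndufb8 probes with the smaller changes had mean log2 signals of 6.74 and 7.77, and which transcripts each probe reads was not tested.

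Most of the 35 genes followed a shared profile over the 6 arrays. The correlation of a gene with the mean of the other 34, which share the arrays, was above 0.9 for 28 genes and lowest for Ndufv1 at 0.515, Ndufb11 at 0.541 and Ndufa9 at 0.71. Set against each gene's mean over the 6 arrays, in the same clone order the median deviation was 0.38, 0.43 and 0.14 on doxycycline arrays, against 0.07, -0.56 and -0.38 on their control arrays. The control array of clone 6_1, which also stood apart over all probes, was the lowest array for 27 of the 35 genes, and the control array of clone 6_2 for 7. Over all 9196 measured genes these control arrays were lowest for 3040 and 846. The control array of clone 6_1 was also lowest for 25 of 36 genes of complexes II to V. Among mitochondrial and cytosolic ribosomal protein genes it was lowest for 60 of 72 and 38 of 55, so this trait is not particular to complex I. The doxycycline array of clone 6_1 was the highest for 20 complex I genes and that of clone 14 for 13, against 1408 and 1821 of all 9196 measured genes.

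**Figure D3:**
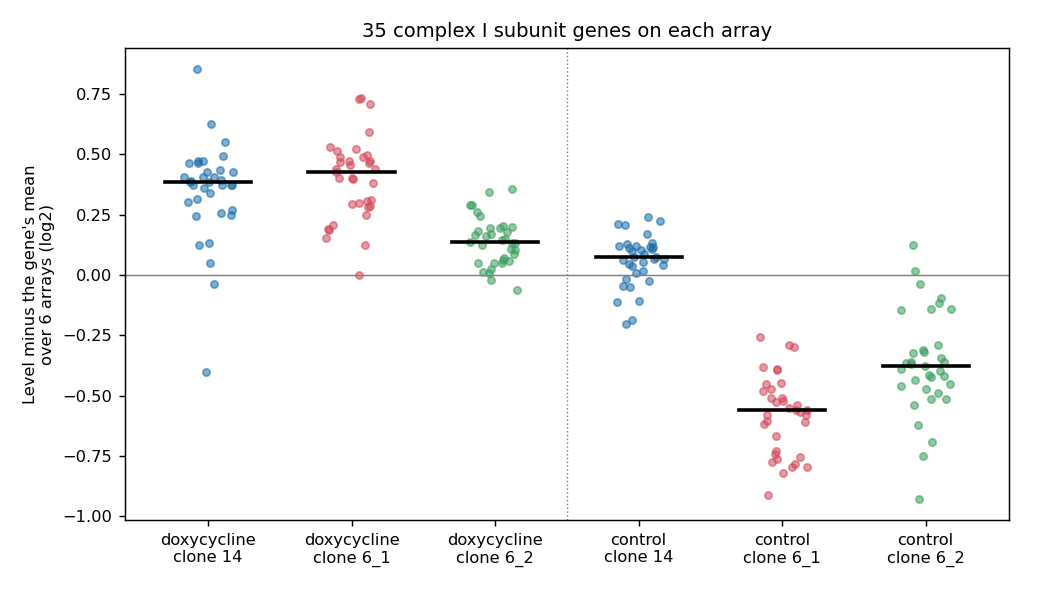
Each point is 1 complex I gene on 1 array, as its level minus its mean over the 6 arrays (log2), with the median as a black bar. The doxycycline arrays of clones 14 and 6_1 are highest, the control arrays of clones 6_1 and 6_2 are lowest, and the control array of clone 14 lies near the doxycycline array of clone 6_2.

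The clones were compared next, to see whether they start from the same level. Clone 6_1 minus clone 14 had a median of -0.62 in control medium, with all 35 genes lower in clone 6_1, and 0.04 with doxycycline, with 13 lower. Clone 6_2 minus clone 14 had -0.44 in control medium, with 33 of 35 lower in clone 6_2, and -0.25 with doxycycline, with 31 lower. Clone 6_1 thus lay below clone 14 on the control arrays and near it on the doxycycline arrays, while clone 6_2 lay below clone 14 in both media. Averaged over the media, the complex I median was -0.30 for 6_1 minus 14 and -0.35 for 6_2 minus 14, against -0.02 and 0.00 over all measured genes. The counts of lower genes per medium were not made over all measured genes. A lower control level in clones 6_1 and 6_2 was not particular to complex I. For complexes II to V the median deviation from a gene's mean was 0.05, -0.43 and -0.23 on the control arrays (clones 14, 6_1 and 6_2). It was 0.04, -0.53 and -0.20 for mitochondrial and 0.05, -0.38 and -0.22 for cytosolic ribosomal protein genes. With 1 culture per clone and medium, whether the gap differs between media was not tested. With medium as a term, 0 of the 50 probes passed between any pair of clones (limma), against 0.136%, 0.142% and 0% of all probes for 6_1 over 14, 6_2 over 14 and 6_1 over 6_2. At an unadjusted p under 0.05 there were 5, 5 and 0 probes, against 15.6%, 10.7% and 2.67% of all probes. Among the genes' brightest probes the largest differences belonged to Ndufb7, at -0.69 (SE 0.23, adjusted p = 0.21) for 6_1 minus 14 and -0.91 (SE 0.23, adjusted p = 0.214) for 6_2 minus 14. Next came Ndufab1 and Ndufa5, at -0.61 and -0.58, for 6_1 minus 14, and Ndufa3 and Ndufb3, at -0.56 and -0.55, for 6_2 minus 14.

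Signal level set little apart among these genes. The median change was 0.59 for the 20 genes with a mean log2 signal of 12 or more, 0.59 for the 10 between 10 and 12 and 0.76 for the 4 between 8 and 10. Over all measured genes the same classes had medians of -0.01, -0.02 and 0.00. Only Ndufb11 lay under 8. Across the 35 genes, which share their arrays, Spearman's rho of change with signal was -0.195, and it was 0.236 under median scaling.

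Gene span, the length of the gene with its introns in GRCm38.p6, moved with the changes over the whole array. Over 9181 measured genes with a known span the median change was 0.29 under 5 kb, 0.13 from 5 to 15 kb, -0.04 from 15 to 50 kb and -0.18 at 50 kb and over, with a Spearman's rho of -0.440. Complex I genes are short: 10 spanned under 5 kb, 19 from 5 to 15 kb, 5 from 15 to 50 kb, and Ndufs4 100.3 kb. Their medians in the first 3 classes were 0.59, 0.61 and 0.55, and Ndufs4 changed by 0.44. Among the 35 genes rho was -0.276, and the genes share arrays, probe chemistry and a narrow range of spans. Ndufv1, at 5.26 kb, changed by 0.03 and Ndufa12, at 22.4 kb, by 0.58.

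With the trend on span removed from each clone's changes, the complex I median was 0.48, with 0.23, 0.72 and 0.42 in clones 14, 6_1 and 6_2. Then 29 genes lay above 0 in each clone, against 31 before. Ndufv1 turned to -0.18 and was the only gene with a mean below 0. What makes short genes read higher with doxycycline was not tested.

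**Figure D4:**
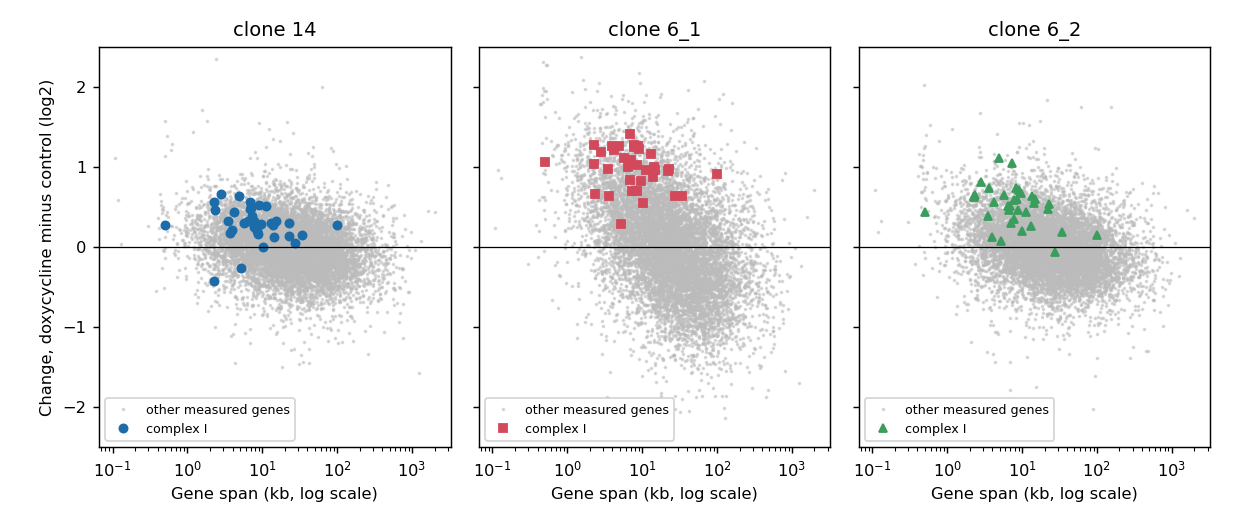
Change (doxycycline minus control, log2) against gene span in kb on a log scale, 1 panel per clone, with complex I genes in colour and the other measured genes in grey. The grey cloud falls with span in each clone, most in clone 6_1, and the complex I points lie mostly in its upper part; 2, 7 and 1 genes, none of complex I, lie beyond a change of 2.5 in either direction, outside the axis, in clones 14, 6_1 and 6_2.

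The nearest gene groups moved the same way. Nuclear genes of complexes II to V had a median of 0.42 over 36 genes, mitochondrial ribosomal protein genes 0.40 over 72 and cytosolic ribosomal protein genes 0.39 over 55, against 0.60 for complex I. Higher in each clone were 31, 53 and 39 of them, against 24.9% of all measured genes. Every doxycycline array lay above every control array for 47.2%, 45.8% and 36.4% of them, against 57.1% for complex I and 12.4% of all measured genes. With the span trend removed the medians were 0.26, 0.28 and 0.08, against 0.48 for complex I. The complex I median was the highest of the 4 in each clone, and these differences between groups were not tested.

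**Figure D5:**
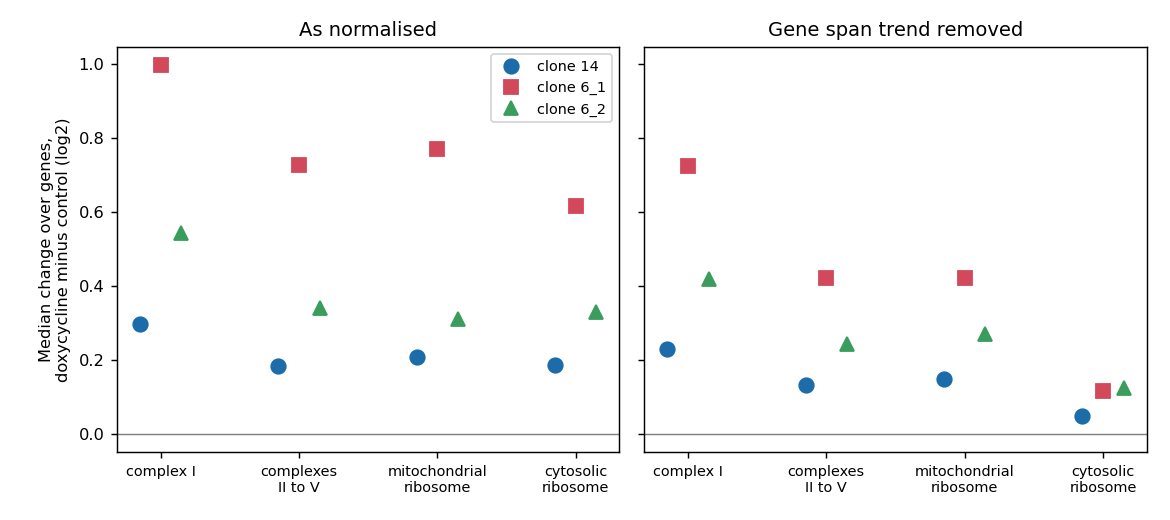
Median change over genes (doxycycline minus control, log2) of complex I, complexes II to V, mitochondrial and cytosolic ribosomal protein genes in each clone, as normalised (left) and with the gene span trend removed (right). All medians lie above 0, clone 6_1 has the largest except for the cytosolic ribosome on the right, and the cytosolic ribosome drops most from left to right.

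The factors that assemble complex I without staying in it were read from a list of 21, of which 17 genes were measured. Their median change was 0.29, with 0.22, 0.41 and 0.25 per clone. Of the 17, 13 were higher in each clone, against 24.9% of all measured genes. The test over all probes was passed by 0 of them, against 31 of all 9196 measured genes in either direction. At an unadjusted p under 0.05 (limma) 6 were higher and 0 lower, against 11.9% of all measured genes that were higher. Dmac1, a factor of the distal membrane arm, read 12.42, 12.11 and 12.04 on the doxycycline arrays, against 11.97, 10.83 and 11.47 on the control arrays. Its control array of clone 6_1 was the lowest, the groups did not overlap, and the change was 0.77 (SE 0.20, adjusted p = 0.109). Ndufaf2, which holds the place of Ndufa12 during assembly, changed by 0.69 (SE 0.17, adjusted p = 0.101), and Ndufaf8 by 0.64 (SE 0.24, adjusted p = 0.172). Chchd4, the intermembrane oxidoreductase that folds twin-cysteine subunits such as Ndufb7, changed by 0.58 (SE 0.20, adjusted p = 0.152). Below 0 were Acad9, Aifm1 and Dmac2, at -0.05 to -0.16.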

How the data were processed

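Total RNA from 3 doxycycline and 3 control cultures of clones 14, 6_1 and 6_2 was labelled by T7 oligo(dT) amplification with biotin and read on Illumina mouse bead arrays, per the labels' protocols. The deposited table holds, per the file headers, a linear intensity per probe, neither background-subtracted nor normalised, and a detection p-value against negative control beads. A second table made by the authors holds a processed intensity per probe, with no method stated, and the submitters' processing notes list BeadStudio and GenomeStudio.

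Intensities were background-corrected by normexp from the detection p-values (offset 16), quantile normalised and log2 transformed with neqc of limma 3.58.1 in R 4.3.3. Probes with a detection p under 0.01 on at least 3 arrays were kept (16902 of 45281). limma fitted medium with clone as a block over all kept probes, two-sided, with Benjamini-Hochberg adjustment and a threshold of 0.05. Clones pair the arrays because each was kept in both media. Deviations of an array pair from the media means correlated at 0.538 (clone 14), -0.0211 (6_1) and 0.139 (6_2). Each gene was read by its brightest kept probe. Symbols came from the platform annotation, and spans and promoters from RefSeq GRCm38.p6; spans were known for 99.8% of measured genes.

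The members, modules, lists and naming rule were chosen with earlier results of these data known. Values on all arrays are given for core subunits, the 8 largest mean changes, genes below 0 in any clone, each clone's largest and smallest change, genes whose probes differ in sign, and the 3 largest clone differences. The fit was tested on simulated data. Alternatives were other scalings, no background correction, other detection filters, the authors' values, no clone block, each clone left out, other memberships, and removal of trends on gene span or signal.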

Additional observations from a re-analysis of the deposited data

Results flagged for a closer look

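In 4 complex I genes the computed change with doxycycline had opposite signs in different clones, each with 1 culture per clone and medium, so the differences were not tested. Ndufb11 changed by 1.03 in clone 6_1 and by -0.42 in clone 14, a difference of 1.45, but its doxycycline value in clone 14 was not above background, so neither the size nor the sign in that clone is a measured one. Ndufa9 changed by 0.63 in clone 6_1 and by -0.06 in clone 6_2, a difference of 0.70. Ndufv1, the NADH-binding subunit, changed by 0.29 in clone 6_1 and by -0.26 in clone 14, a difference of 0.56. Ndufs3 changed by 0.55 in clone 6_1 and by -0.00 in clone 14, a difference of 0.55. The value of Ndufs3 in clone 14 is too near 0 to give a sign. That of Ndufa9 in clone 6_2 is small against the SE of 0.19 of its mean change. In each of the 4 the higher value belonged to clone 6_1, whose control array stood apart over all probes, and the part of that array in these differences was not tested.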

How the results depend on the processing

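All 35 complex I genes kept a mean change above 0 under quantile normalisation, median scaling, cyclic loess, the authors' processed values and no background correction. Without clone 6_1, 33 of the 35 did, and Ndufv1 at -0.10 and Ndufa9 at -0.01 lay below 0. The number of complex I probes that passed was 0 as reported, and 1 under median scaling and with the authors' processed values, in both a probe of Ndufa3. With 1 clone left out it ran from 0, without clone 6_1, to 5 without clone 6_2 and 11 without clone 14. In the fits without clone 14 and without clone 6_2 limma estimated an infinite prior for the spread, and over all probes 717 and 400 passed, against 53 as reported. Without clone 6_1, 78 of all probes passed. Over all probes 165 passed under median scaling and 40 with the authors' processed values. There were 32 with no background correction, 33 with no replicate block and 1 with no filter on dim probes. With no replicate block, the clones left unpaired, 0 complex I probes passed. The median change of complex I ran from 0.42 without clone 6_1 to 0.76 without clone 14. The Q module fell furthest without clone 6_1, to 0.17, against 0.53. Spearman's rho of change with signal was -0.195 as reported and 0.236 under median scaling, and the cause was not tested. The dim probes of Ndufb11 and Ndufv3 limit what can be said of those targets.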
